A study of Mus musculus with 2 samples.

Results

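Dual-specificity phosphatases (DUSPs) of the mitogen-activated protein (MAP) kinases were described here through 9 genes, Dusp1, Dusp2, Dusp3, Dusp4, Dusp5, Dusp6, Dusp8, Dusp10 and Dusp16. They were taken from the count tables by the Ensembl identifiers that carry these symbols in the GENCODE annotation of the mouse genome build GRCm38, and all 9 were found among 52489 annotated genes. The libraries came from livers of C57BL/6 mice, 9 weeks old, either wild type (WT) or labelled GBP5-/- (KO), a knockout of the gene of the interferon-inducible guanylate-binding protein 5. Both groups had received D-galactosamine (GalN, 800 µg per g body weight) and lipopolysaccharide (LPS, 100 ng per g) for 6 h. LPS is an endotoxin of bacteria to which GalN sensitises hepatocytes. Each genotype is 1 library made from the pooled RNA of 4 livers. There are therefore no replicates, no untreated library was analysed here, and the way the GBP5 allele was made is unknown from the labels. The question the design poses is how the liver transcriptome differs between the genotypes under this treatment.

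MAP kinases (ERK, JNK and p38) are switched on by phosphorylation of a threonine and a tyrosine in their activation loop, and DUSPs remove both phosphates. Several DUSP genes are early targets of the kinases they switch off, so that they form a negative feedback. In endotoxin-stimulated macrophages Dusp1 is known for restraining p38 and JNK and with them the output of inflammatory cytokines. Members differ in place and preference. Dusp1, Dusp2, Dusp4 and Dusp5 encode nuclear, inducible enzymes, Dusp6 a cytoplasmic enzyme selective for ERK, and Dusp8, Dusp10 and Dusp16 enzymes that prefer JNK and p38. Dusp3 encodes a small atypical member without the kinase-binding domain of the others.

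The 250 bases before the RefSeq start are shown for 6 members. They are the 4 whose windows hold a match to one of the motifs searched (Dusp1, Dusp2, Dusp5 and Dusp8) and, from those without a match, Dusp3, which was lower in KO, and Dusp6, which was higher. The sequences are those of RefSeq on GRCm38.p6, 5′ to 3′ on the strand of the gene, and capitals mark motif matches. RefSeq starts differ in part from the GENCODE gene spans given below. The windows of Dusp1, Dusp3 and Dusp8 lie within those spans, as does that of Dusp10, not shown, and that of Dusp5 lies partly within. Such windows were matched for 8 of the 9 members, without Dusp4.

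Dusp1, chr17:26508473-26508722, minus strand: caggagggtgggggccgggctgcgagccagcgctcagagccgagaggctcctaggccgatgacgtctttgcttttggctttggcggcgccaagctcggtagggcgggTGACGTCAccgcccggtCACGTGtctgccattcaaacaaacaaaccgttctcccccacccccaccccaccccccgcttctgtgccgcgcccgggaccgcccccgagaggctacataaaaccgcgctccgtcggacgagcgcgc
Dusp2, chr2:127335909-127336158, plus strand: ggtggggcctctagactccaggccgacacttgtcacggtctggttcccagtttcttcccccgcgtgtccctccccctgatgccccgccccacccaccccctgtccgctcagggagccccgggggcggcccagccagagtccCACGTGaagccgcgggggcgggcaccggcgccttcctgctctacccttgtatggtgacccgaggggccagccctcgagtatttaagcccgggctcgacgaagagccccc
Dusp5, chr19:53528895-53529144, plus strand: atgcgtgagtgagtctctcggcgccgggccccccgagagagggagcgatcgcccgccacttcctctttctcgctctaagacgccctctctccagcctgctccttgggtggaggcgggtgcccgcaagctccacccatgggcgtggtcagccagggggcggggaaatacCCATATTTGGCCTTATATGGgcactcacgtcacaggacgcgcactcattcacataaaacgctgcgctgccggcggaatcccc
Dusp8, chr7:142095285-142095534, minus strand: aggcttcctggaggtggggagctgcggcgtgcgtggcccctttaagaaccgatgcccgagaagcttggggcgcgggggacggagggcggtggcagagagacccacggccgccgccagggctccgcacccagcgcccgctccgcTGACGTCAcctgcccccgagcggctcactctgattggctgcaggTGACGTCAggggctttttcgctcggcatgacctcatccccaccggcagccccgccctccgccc
Dusp3, chr11:101984792-101985041, minus strand: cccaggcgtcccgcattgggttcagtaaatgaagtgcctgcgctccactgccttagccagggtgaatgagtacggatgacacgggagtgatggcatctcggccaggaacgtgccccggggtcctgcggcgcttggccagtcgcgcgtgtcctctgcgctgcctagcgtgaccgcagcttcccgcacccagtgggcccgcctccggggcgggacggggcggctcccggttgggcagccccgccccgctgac
Dusp6, chr10:99262981-99263230, plus strand: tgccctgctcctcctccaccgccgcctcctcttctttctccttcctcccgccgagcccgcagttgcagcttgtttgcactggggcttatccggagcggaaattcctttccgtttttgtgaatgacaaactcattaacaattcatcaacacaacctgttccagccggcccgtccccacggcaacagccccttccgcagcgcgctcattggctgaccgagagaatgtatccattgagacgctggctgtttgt

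The motifs, searched on both strands, were the cAMP response element (TGACGTCA), the AP-1 site (TGANTCA), the E-box (CACGTG), the TATA box (TATAAA), the ETS site (CCGGAAG), NF-kB and the serum response element (CArG box). The cAMP response element occurred in the windows of Dusp1, at -143 to -136 from the start, and of Dusp8, at -107 to -100 and -63 to -56. Over all 32851 RefSeq windows of this length, 1.55% hold it. The Dusp5 window holds a pair of adjacent CArG boxes, at -82 to -73 and -72 to -63, and 1.47% of windows hold at least 1 such box. The E-box was found in Dusp1 at -126 to -121 and in Dusp2 at -109 to -104, against 6.02% of all windows. None of the 8 windows held the AP-1, NF-kB, TATA or ETS letters, which occur in 6.75%, 7.25%, 12.4% and 6.91% of all windows. The windows of Dusp3, Dusp10 and Dusp16, like that of Dusp6, held no match at all. The 8 windows had a GC content from 56.4% (Dusp6) to 71.6% (Dusp8), against a median of 52.4% over all windows. The shares given are thus not those of windows of like GC content. These are letter matches only. The comparison below pools unlike motifs, and the share of all windows with a match to any of them was not counted. Dusp4, at least 2-fold lower in KO, had no window and is missing from it. The split is therefore not read as a result about motifs. Among the windows with a match, the level in KO was 63.0% of that in WT for Dusp1, 20.6% for Dusp2, 63.5% for Dusp5 and 65.4% for Dusp8. Among those without, it was 80.1% for Dusp3, 128% for Dusp6, 132% for Dusp10 and 101% for Dusp16. The genes with a match also had the more GC-rich transcripts, at 54.0% to 59.2% against 47.8% to 49.3%. The difference between the libraries went with GC content, as given below, so motif and GC content cannot be told apart here. Relative to genes of like GC content and length, log2 differences ran from -1.54 (Dusp2) to 0.62 (Dusp8) with a match. Without a match they ran from -0.31 (Dusp3) to 0.41 (Dusp10).

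Gene-assigned reads numbered 19864848 in WT and 15750875 in KO. The limit that a count of 0 sets, 3 reads, was thus 0.151 and 0.190 CPM (reads scaled to library size). For the targeted gene Gbp5, WT had 3211 reads against 873 in KO, a 2.92-fold lower level (log2 difference -1.54) in the direction of the labels. Gbp5 reads remained in KO at 55.4 CPM, and the macrophage markers Marco (-1.77) and C1qa (-1.66) were lower by as much, so this value does not by itself set the genotypes apart. The 6 hepatocyte markers, all abundant, took 5.98% of the WT reads and 9.42% of the KO reads, a difference carried mostly by Alb (38384 and 69250 CPM). The difference between the libraries went with GC content: among genes with 100 reads or more, the median log2 difference was 0.28 in the tenth lowest in GC and -0.86 in the tenth highest. The 9 DUSP genes lie in the middle and the upper part of the GC range, from 47.8% (Dusp16) to 59.2% (Dusp2). Genes like them in GC content and length had medians from 0.02 down to -1.24, so each DUSP gene is given below also relative to genes of like GC content and length. Ratios are KO to WT in CPM with exact 95% Clopper-Pearson intervals, which cover counting error only, and nothing here says how pools or preparations of the same genotype would vary.

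Of the 9 genes, 6 had less of their message in KO with an interval wholly below 1, Dusp6 had more, and the intervals of Dusp10 and Dusp16 crossed 1. Of all genes tested, 36.5% had an interval wholly below 1 and 26.7% wholly above. At least 2-fold lower were 2, Dusp2 and Dusp4, and at least 2-fold higher none. Among all 14062 genes at 1 CPM or more in either library, 12.4% were at least 2-fold lower and 4.63% at least 2-fold higher, and with 9 genes a count of 2 is close to that background and is not read as a property of the group. The median log2 difference of the 9 was -0.61, against -0.07 for all genes. After subtracting the median of genes of like GC content and length, Dusp2 was the 1 gene left at 2-fold lower, none was 2-fold higher, and the median was -0.28. The background was then 6.77% lower and 5.22% higher. Dusp2 passed 2-fold under all 11 alternatives tried, and Dusp4 did not. The alternatives that change only the choice of genes could not move either value.

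**Figure D1:**
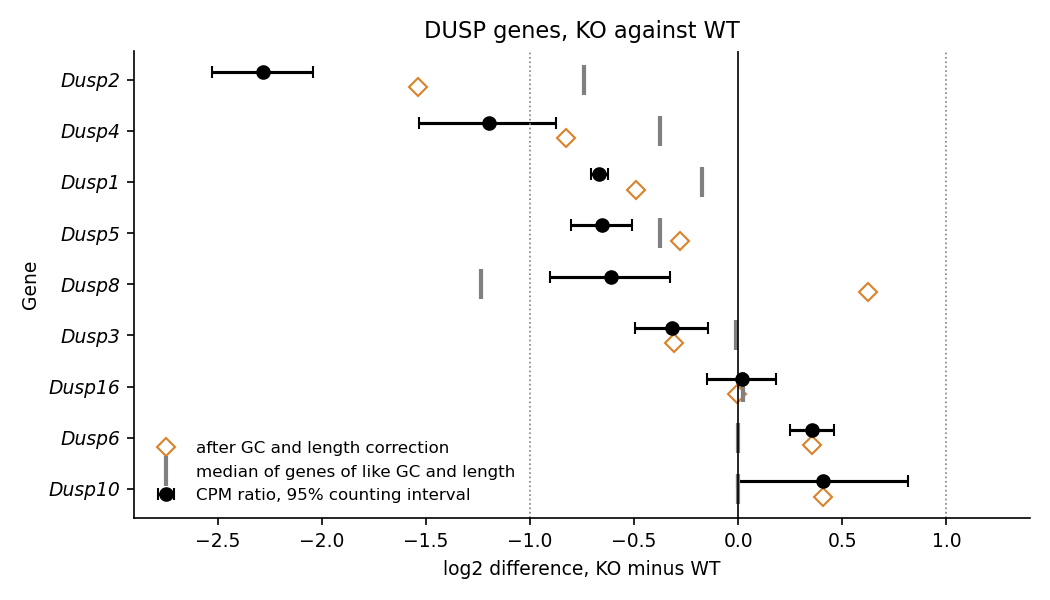
Log2 difference between KO and WT (x axis) for each DUSP gene (y axis). Black points are CPM ratios with 95% counting intervals, grey ticks the median of genes of like GC content and length, open diamonds the difference after subtracting it, and dotted lines mark 2-fold. Dusp2 lies farthest to the left in both forms, and Dusp8 is the gene whose diamond lies far on the other side of 0 from its point.

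Among the nuclear, inducible members Dusp1 was by far the most abundant. It lies on chromosome 17 (GRCm38, 26505590 to 26562128, minus strand) and counted 14249 reads in WT against 7117 in KO, which is 717 and 452 CPM. Its message was 1.59-fold lower in KO (1.54 to 1.63). The log2 difference was -0.67, or -0.49 relative to genes of like GC content and length. Of all genes tested, 21.6% lay at or below it, so Dusp1 stands out by its level and its precision more than by its difference. Its annotation shares 11 exonic bases with Ergic1 on the other strand, which had 2209 and 1790 reads.

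Dusp2, a phosphatase gene named from activated immune cells, showed the largest difference of the 9. It lies on chromosome 2 (127336159 to 127338376, plus strand) with 1030 WT reads and 168 KO reads, at 51.9 and 10.7 CPM. KO was 4.86-fold lower (4.13 to 5.76), and the log2 difference was -2.28. This placed it as number 128 from the lowest of 14062 genes, with 0.910% at or below it. Genes as GC-rich and as short as Dusp2 had a median of -0.74, and relative to them Dusp2 was at -1.54, number 264 from the lowest.

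Dusp4 is a nuclear phosphatase of ERK and JNK on chromosome 8 (34807297 to 34819894, plus strand). It counted 307 WT reads and 106 KO reads, at 15.5 and 6.73 CPM. It was 2.30-fold lower (1.84 to 2.89), with an interval that reaches below 2-fold, and its log2 difference of -1.20 was -0.83 after the correction. Dusp5, a nuclear phosphatase selective for ERK, lies on chromosome 19 (53529109 to 53542431, plus strand). It had 1111 and 559 reads, or 55.9 and 35.5 CPM, and was 1.58-fold lower (1.42 to 1.75). Its log2 difference was -0.66, but genes of like GC content and length had a median of -0.37, which leaves -0.28. An antisense gene of the annotation, AC137853.2, covers 547 exonic bases of Dusp5 and has no entry in the tables used, so reads of the 2 strands could be mixed in the Dusp5 count if strand was not used in counting.

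Dusp6, the cytoplasmic ERK phosphatase and a standard readout of ERK activity in many cells, went the other way. It lies on chromosome 10 (99263231 to 99267489, plus strand) and counted 1450 WT reads and 1469 KO reads. Scaled to library size these are 73.0 and 93.3 CPM, 1.28-fold higher in KO (1.19 to 1.37). The log2 difference of 0.35 stayed at 0.35 after the correction. Dusp6 thus stood on the other side of 0 from the 4 nuclear members, without reaching 2-fold.

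The genes for JNK and p38 phosphatases did not share a direction. Dusp8, on chromosome 7 (142079490 to 142095843, minus strand), had 299 and 155 reads, 15.1 and 9.84 CPM, and was 1.53-fold lower in KO (1.26 to 1.87). Genes as GC-rich and as long as Dusp8 had a median of -1.24, so its log2 difference of -0.61 became 0.62, a change of sign. Dusp10, on chromosome 1 (184013302 to 184075636, plus strand), was the least covered member with 100 and 105 reads. At 5.03 and 6.67 CPM its ratio was 1.32 with an interval from 0.997 to 1.76, so no difference was detectable at this depth. Dusp16, on chromosome 6 (134715468 to 134792625, minus strand), had 670 and 537 reads, 33.7 and 34.1 CPM. Its ratio of 1.01 has an interval from 0.901 to 1.13, narrower than that of Dusp10 and likewise across 1. The atypical member Dusp3, on chromosome 11 (101971143 to 101987013, minus strand), had 691 and 439 reads, 34.8 and 27.9 CPM. It was 1.25-fold lower (1.11 to 1.41), with a log2 difference of -0.32 that was -0.31 after the correction. The antisense gene Gm20659 shares 604 exonic bases with Dusp3 and had 0 reads in both libraries. Reads of Dusp3 in these bases could be missing from its count if strand was not used in counting.

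**Figure D2:**
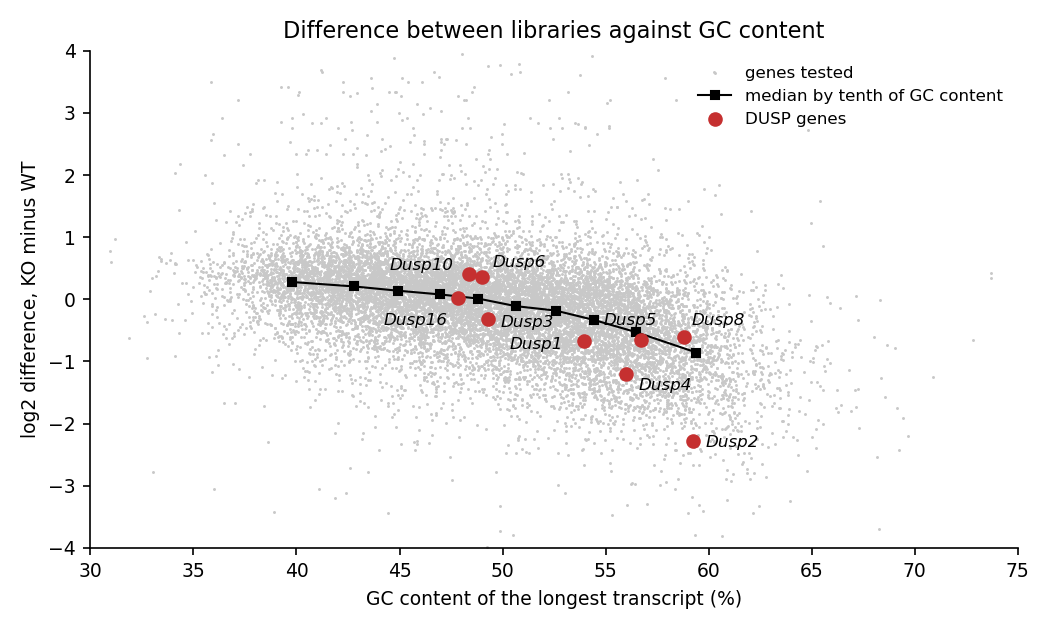
Log2 difference between KO and WT (y axis) against GC content of the longest transcript in percent (x axis). Grey dots are genes tested, with 50 beyond the y axis left out, black squares the medians by GC content in 10 equal groups of genes with 100 reads or more, and red points the 9 DUSP genes. Dusp2 and Dusp8 have nearly the same GC content, 59.2% and 58.8%, and log2 differences of -2.28 and -0.61.

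Levels per length, in FPKM (reads scaled to exon length and library size), show how the make-up of the group differed. They are not corrected for GC content, so changes of place and share between the libraries carry that trend. For genes like Dusp2 in GC content and length its median was -0.74. In WT, Dusp1 stood at 217 FPKM, followed by Dusp2 at 25.9, Dusp6 at 23.3 and Dusp5 at 22.6. The counting intervals of these last 3 overlap their neighbours, from 24.3 to 27.5 for Dusp2, 22.1 to 24.5 for Dusp6 and 21.3 to 24.0 for Dusp5. Dusp3 (7.43), Dusp4 (5.64), Dusp16 (4.33), Dusp8 (3.09) and Dusp10 (1.65) followed, each with an interval apart from the next. In KO, Dusp1 stood at 136 FPKM, Dusp6 at 29.8 and Dusp5 at 14.4, all with separate intervals. Dusp2 had gone from the second to the fifth place, at 5.33 FPKM (4.55 to 6.19), between Dusp3 at 5.95 (5.41 to 6.54) and Dusp16 at 4.37 (4.01 to 4.76), with overlapping intervals. Dusp4 (2.46), Dusp10 (2.19) and Dusp8 (2.02) were not separable there.

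The summed level of the 9 was 311 FPKM in WT and 203 in KO, 1.53-fold lower, a sum dominated by Dusp1. Dusp1 made up 69.8% of it in WT and 67.3% in KO. The share of Dusp6 went from 7.50% to 14.7% and that of Dusp2 from 8.33% to 2.62%. The annotated span of Dusp1 takes in its RefSeq start and bases before it. Its FPKM rests on an exon length of 3311 bases, the union of all annotated exons. That length does not enter ratios between libraries.

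**Figure D3:**
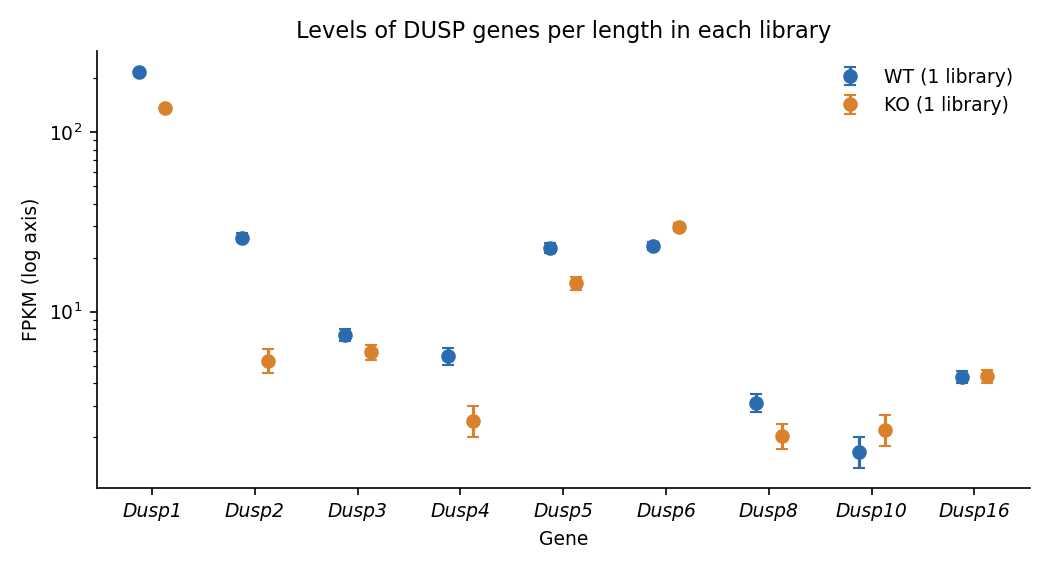
Level of each DUSP gene in FPKM on a log axis (y axis) in the WT and the KO library (blue and orange points, 1 library each), with exact 95% Poisson intervals. Dusp1 is the highest in both libraries, Dusp6 is higher in KO, and Dusp2 and Dusp4 show the widest gaps between libraries.

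Ratios of reads between members within a library do not use library totals, although the trend with GC content still enters them. Per 100 reads of Dusp6, WT had 71.0 reads of Dusp2 and KO had 11.4, a 6.21-fold difference (interval 5.18 to 7.47). For Dusp1 the numbers were 983 and 484 per 100 reads of Dusp6, a 2.03-fold difference (1.87 to 2.19). Dusp5 gave a 2.01-fold difference (1.77 to 2.29) and Dusp4 a 2.93-fold difference (2.32 to 3.74) against Dusp6. Dusp10 did not differ from Dusp6 beyond counting error, at 6.90 and 7.15 reads per 100 (WT to KO ratio 0.965, interval 0.719 to 1.29). Dusp2 was also lower against the nuclear members themselves, 3.06-fold against Dusp1 (2.59 to 3.64), 3.08-fold against Dusp5 (2.54 to 3.76) and 2.12-fold against Dusp4 (1.59 to 2.81).

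Dusp2 is a gene known from activated lymphocytes and myeloid cells, and most markers of such cells had less of their message in KO. Of 8 Kupffer cell and macrophage markers all 8 were lower with intervals below 1, from -1.77 (Marco) to -0.33 (Vsig4), and their summed level was 1272 CPM in WT and 524 CPM in KO. The 8 T and NK cell markers summed to 85.8 and 37.5 CPM, mostly Gzmb (46.9 and 19.2) and Il2rb (24.0 and 10.5). Their log2 differences ran from -2.02 (Trbc1) to -0.39 (Cd3g). Of these 8 differences 6 had intervals below 1, whereas those of Cd3g (ratio 0.485 to 1.19) and Cd3e (0.317 to 1.29) crossed it. For comparison, 54.1% of all genes tested lay below 0. The 6 neutrophil markers summed to 383 and 300 CPM, with 3 intervals below 1 and S100a8 (0.06) and Mmp8 (0.04) close to 0. The 4 B cell markers summed to 10.2 and 6.98 CPM, with 2 intervals below 1 and Ms4a1 at 0.55 on 19 and 22 reads. The 5 endothelial markers summed to 517 and 399 CPM, with 3 intervals below 1 and that of Kdr above it. Cdh5 (185 and 110 CPM) carried most of that difference. The 5 cholangiocyte markers summed to 142 and 203 CPM, with 3 intervals above 1 and that of Sox9 below it. Among them Krt19 (11.5 and 48.7 CPM) differed most. The markers of stellate cells and fibroblasts summed to 626 and 605 CPM, mostly Dcn (439 and 491). Of these, Col3a1 was 2.94-fold lower and Lrat had 15.9 and 30.2 CPM. None of these markers was at 0 in either library. Of 6 pancreatic acinar markers 4 were at 0 in WT and 4 in KO, while Ctrb1 had 0 and 297 reads. Per 100 reads of the Kupffer cell lectin gene Clec4f there were 25.8 reads of Dusp2 in WT and 11.96 in KO, a 2.15-fold difference (1.81 to 2.58). Against the lymphocyte protease gene Gzmb the difference was 1.99-fold (1.61 to 2.46) and against Marco 1.42-fold (1.20 to 1.70). Against the neutrophil markers Csf3r and S100a8 it was 2.22-fold (1.84 to 2.68) and 5.07-fold (4.25 to 6.09). These ratios carry the trend with GC content, and Dusp2 has a higher GC content than each of these markers. After the correction Dusp2 was at -1.54, near Gzmb at -1.47 and below Clec4f at -1.09. Of the macrophage and the T and NK cell markers, only Marco (-1.82), Trbc1 (-2.05) and Klrb1c (-1.94) lay lower than Dusp2. Trbc1 had 51 and 10 reads and Klrb1c 21 and 5. A larger difference of Dusp2 than of the markers in these lists thus held for most of them, but not for each. In RNA of whole liver, fewer cells of a type and less RNA per cell cannot be told apart, and the part of cell numbers in the difference of Dusp2 was not tested.

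Other genes of MAP kinase signalling are given by list, and the counts are to be read against all genes tested, of which 54.1% were below 0 and 12.4% at least 2-fold lower, or 49.5% and 6.77% after the correction. The remaining dual-specificity phosphatase genes gave no common direction. Of 17, 9 reached 1 CPM, of which 3 were below 0, 2 at least 2-fold lower and 1 at least 2-fold higher, with a median log2 difference of 0.03. After the correction the median was 0.24, none was 2-fold lower and 1 was 2-fold higher. Dusp7, which with Dusp6 and Dusp9 forms the subfamily of cytoplasmic ERK phosphatases, was 2.77-fold lower (2.10 to 3.69) on 234 and 67 reads. Its log2 difference was -1.47, or -0.81 after the correction, in contrast to the higher level of Dusp6. Dusp28 was 2.15-fold lower (1.57 to 2.98), with -0.67 left by the correction. At the other end, Dusp14 gave a ratio of 2.31 (1.10 to 5.13) on 12 and 22 reads, and Dusp19 had 19 and 27. Dusp9 had 1 read in WT and 0 in KO.

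The kinases that DUSPs act on were mixed. Of 14 MAP kinase genes 13 were tested, 9 were below 0, 5 at least 2-fold lower and 1 at least 2-fold higher, and their median was -0.38. After the correction the median was -0.35, none of those 5 was left at 2-fold, and the 1 gene 2-fold lower was Nlk, which encodes a kinase of the MAP kinase group, at -1.11 (before it -0.996). The atypical kinase gene Mapk15 was 3.24-fold lower (2.87 to 3.66) and Mapk7, which encodes ERK5, 2.61-fold lower (2.24 to 3.05), with -0.95 and -0.73 left by the correction. The JNK gene Mapk8 had a log2 difference of 0.27, close to 0 after the correction, and the p38 isoform gene Mapk13, on 28 and 47 reads, 2.12-fold higher (1.30 to 3.51). Upstream, the 7 MAP kinase kinase genes had a median of 0.18, with 1 at least 2-fold higher. Map2k7 was 1.96-fold and Map2k1, which encodes MEK1, 1.86-fold lower, whereas Map2k3 was 1.27-fold higher and Map2k6, on 40 and 66 reads, 2.08-fold higher. After the correction 2 of these 7 were below 0, and Map2k6 was at 0.95. The 19 MAP3K, RAF and TAB genes had a median of -0.12, close to all genes tested, and 2 were at least 2-fold lower. The correction turned this, to a median of 0.17 with none 2-fold lower and 2 at least 2-fold higher, Tab1 (1.38, from 0.36 on 52 and 53 reads) and Map3k12 (1.05). The lowest were Map3k10, 3.06-fold lower, and Map3k6, 2.99-fold lower, at -0.60 and -0.56 after the correction. The highest were Map3k12, 1.89-fold higher, and Tab3, 1.48-fold higher.

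Of the kinases that MAP kinases switch on, 8 of 10 had log2 differences below 0 and 4 were past 2-fold lower. Their median was -0.51, or -0.10 after the correction, which left 2 past 2-fold. Mapkapk2, which encodes the p38 effector kinase MK2, counted 3665 and 868 reads and was 3.35-fold lower (3.11 to 3.61), with -1.37 left by the correction. Mapkapk5, on 82 and 14 reads, was 4.64-fold lower (2.62 to 8.87), with -1.84 left. Rps6ka5 and Rps6ka1, the highest, had ratios of 1.70 (0.920 to 3.20) and 1.13 (0.933 to 1.38). Of 8 scaffold genes 7 were tested, with 5 below 0 and 3 past 2-fold in that direction. Their median was -0.90, or -0.39 after the correction, which left none past 2-fold. Ksr1, a scaffold of the ERK cascade, was 2.81-fold lower and Mapk8ip3, a scaffold of JNK, 2.43-fold lower, at -0.60 and -0.39 after the correction. At the other end, Mapk1ip1l was 1.24-fold higher (1.14 to 1.36), and the ratio of Lamtor3 was 1.11 with an interval across 1 (0.981 to 1.26) and a corrected difference of -0.06.

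Other negative regulators were compared with the DUSP genes. In the list of Sprouty, SPRED and related feedback genes 7 of 10 tested were below 0, 1 of them past 2-fold. Their median was -0.53, or -0.38 after the correction. Spred3 was 4.01-fold lower (2.33 to 7.35) on 81 and 16 reads, and Spry2, at a log2 difference of -0.999 (-1.17 after the correction), missed 2-fold narrowly. The correction raised the count past 2-fold lower from 1 to 4, with Spry2, Spred1 (-0.97 to -1.27), Rasa1 (-0.94 to -1.13) and Spred3 (-2.01 to -1.11). In the same list Errfi1, a feedback inhibitor of the epidermal growth factor receptor, was 1.32-fold higher (1.28 to 1.36) on 9648 and 10091 reads, and Nf1, a RAS inhibitor, 1.66-fold higher (1.42 to 1.95). All 6 tested genes of other MAP kinase phosphatases were below 0, with or without the correction, against 54.1% of all genes without it and 49.5% with it. Their median was -0.30, and 1 was at least 2-fold lower. After the correction the median was -0.36 and the 1 gene past 2-fold was Ppm1a (-1.01). Ptpn7, a tyrosine phosphatase of blood cells, was 2.03-fold lower (1.26 to 3.36), Ppm1a, a serine and threonine phosphatase, 1.75-fold lower (1.61 to 1.90), and the ratios of the catalytic subunit genes Ppp2ca and Ppp2cb were 0.940 (0.860 to 1.03) and 0.944 (0.815 to 1.09). Genes of transcription factors that MAP kinases phosphorylate had a median of 0.11, with 8 of 19 below 0 and 1 at least 2-fold lower. The correction turned the median to -0.08, with 10 of 19 below 0 and none 2-fold lower. Srf, whose protein binds the CArG box, was 2.98-fold lower (2.71 to 3.28), with -0.83 left by the correction, and Elk1 1.90-fold lower, at -0.60. Atf2 was 1.65-fold and Elk3 1.51-fold higher.

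**Figure D4:**
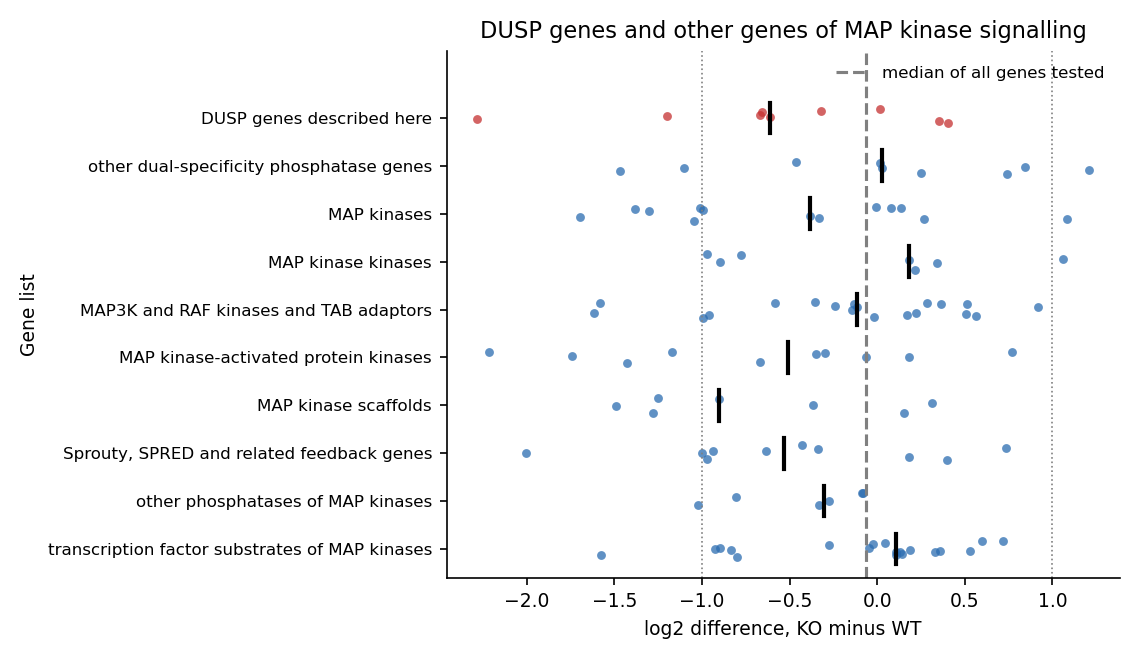
Log2 difference between KO and WT (x axis) of every gene tested in the DUSP group and in 9 other lists of MAP kinase signalling (y axis). Each point is 1 gene, black bars are list medians, the dashed line is the median of all genes tested at -0.07 and dotted lines mark 2-fold. Every list except that of other MAP kinase phosphatases has genes on both sides of 0, and Dusp2 at -2.28 is the lowest point shown.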

How the data were processed

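Liver RNA pooled from 4 mice per genotype was measured as 1 library each. The deposited tables hold whole-number read counts per gene, although they are named for FPKM. The submitters' processing notes name TopHat2, HTSeq 0.6.1 and GRCm38, with no annotation release, strand setting or filter known here. Entries without an Ensembl gene (209 of 52845, with 0.652% of WT and 0.496% of KO counts) were left out, and 147 genes not in GENCODE M21 stayed in the totals only.

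CPM used totals over all Ensembl entries, and FPKM the union of exons. Genes at 1 CPM or more in either library were compared and called at a 2-fold CPM ratio with no pseudocount, with 0 reads set to 3. The correction subtracted the median log2 difference in 10 GC by 4 length bins, taken over genes of at least 100 reads, and also removes real differences that go with either. With 1 library per group no test exists. The steps were tested on simulated counts. No transcript of another gene shared 90% identity over 200 bases with a member, except the overlapping antisense genes Gm20659 (Dusp3, 0 reads in both) and AC137853.2 (Dusp5).

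The members, 9 pathway lists and 9 marker lists were chosen with earlier results of these data known. Named were all members, the 2 highest and 2 lowest of each pathway list, Gbp5 and markers; Dusp9, Nlk, Tab1, Spred1 and Rasa1 were named after their values were seen. Alternatives were 4 scalings, the correction, a pseudocount of 1 CPM, log2 of FPKM + 1, 3 other filters and protein-coding genes only. Python 3.11.15, numpy 2.4.6, pandas 2.3.3, scipy 1.17.1 and, for TMM factors alone, edgeR 4.0.16 served for the calculations.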

Additional observations from a re-analysis of the deposited data

How the results depend on the processing

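Under 11 alternatives the 9 DUSP genes gave 99 values, of which 93 stayed within the counting interval of the gene. Alternatives that change only the choice of genes (the other filters and protein-coding genes only) cannot move these values, so 93 overstates stability. Each scaling moved all genes by the same amount, up to 0.10. With the GC content and length correction, Dusp1, Dusp2, Dusp4, Dusp5 and Dusp8 left their intervals. Dusp1 also left its interval with totals without the 50 most abundant genes. The count of 2 genes at least 2-fold lower became 1 with the GC content and length correction, and likewise with log2 of FPKM + 1, where a 1 is added to low values; in both, Dusp4 dropped out. The median of the 9 moved from -0.61 to -0.28 with the correction. The correction also changed the sign of Dusp8, from -0.61 to 0.62, and of Dusp16, from 0.02 to -0.01; no other alternative changed a sign among the 9. Dusp2 ranged from -2.28 to -1.54 and Dusp6 from 0.34 to 0.46.

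Totals without the 50 most abundant genes moved all log2 differences, and the median of all genes, by 0.10, which puts Dusp1 at -0.56. Of all genes called, 72.9% were lower, and 56.5% with the correction (952 lower and 734 higher, against 1748 and 651). Counts were 788 and 289 on FPKM + 1, 2779 and 2360 without a filter, 1209 and 194 at 5 CPM or more, 1589 and 441 at a mean of 1 CPM, and 1189 and 295 with a pseudocount of 1 CPM. At 5 CPM or more the median of the MAP kinase kinase list moved from 0.18 to -0.30 and that of the scaffold list from -0.90 to -0.63. On FPKM + 1 the scaffold list was at -0.58. Depth limits Dusp10 most, with 100 and 105 reads. No paired analysis was possible because each genotype has 1 library.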
